A study of Mus musculus with 12 samples.

Results

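The mRNAs of 9 transcription factors that mark hippocampal neuron types, Neurod1, Neurod2, Neurod6, Prox1, Bcl11a, Bcl11b, Tbr1, Mef2c and Zbtb20, were followed through RNA immunoprecipitation and sequencing (RIP-seq) of the YTHDF1, YTHDF2 and YTHDF3 proteins. They were picked by gene symbol and are 9 of the 55573 genes counted and of the 17126 genes with enough counts to be tested, so none was lost to the filter on low counts. Primary hippocampal neurons of neonate C57BL/6 mice, an inbred strain, were grown for 14 days in culture and lysed. Per the study's methods, Ara-C was added early in culture against the growth of glial cells, and no treatment before lysis is named for the RIPs. RNA was recovered with rabbit antibodies EPR22349-16 (YTHDF1 RIP), EPR23544-19 (YTHDF2 RIP) and EPR21912-3 (YTHDF3 RIP) to the endogenous proteins. Input is RNA of the same lysates that met no antibody. Each of the 4 groups had 3 replicates. A replicate was the pooled lysate of several culture wells, divided equally among the RIPs beside a shared input. The number of mice behind each culture is not given in the labels. A pull-down by a control antibody was not analysed here. Every enrichment is relative to Input and cannot be told apart from recovery that does not depend on the antibody.

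YTHDF proteins are cytoplasmic readers of N6-methyladenosine (m6A), a methyl mark that the METTL3 complex places on adenosines of mRNA, often in long exons and near the stop codon. An mRNA bound by a reader is more abundant in its RIP than in Input. In the hippocampus the basic helix-loop-helix factors NEUROD1, NEUROD2 and NEUROD6 drive the differentiation of glutamatergic neurons, PROX1 specifies dentate granule cells, and ZBTB20 specifies CA1 pyramidal identity. BCL11A and BCL11B (CTIP1 and CTIP2) are zinc finger repressors of projection neuron subtypes, TBR1 is a T-box factor of early-born glutamatergic neurons, and MEF2C is a MADS-box factor that limits excitatory synapse number.

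The short sequence most often methylated in mammalian mRNA is GGACT, and it was looked up, on the sense strand only, in 1 coding transcript a gene of the GENCODE M21 annotation (GRCm38). The transcripts of all 9 genes held it, as did 92.1% of the 13418 coding genes with a transcript. In a window of 400 bases centred on the end of the stop codon it occurred in 5 of the 9, Neurod2, Neurod6, Bcl11b, Tbr1 and Mef2c, against 40.6% of the 11762 transcripts that hold such a window whole. The copy nearest the stop codon is shown for these 5 and for Zbtb20, whose transcript has 18 copies in its 3′ UTR. The motif is in capitals, each run is 21 bases of the mRNA strand written with T for U, and a match is a description of letters, not a methylated site.
Neurod2 3′ UTR, chr11:98326982-98327002, minus strand: gcctctggGGACTcgccttct
Neurod6 coding, chr6:55678802-55678822, minus strand: gaaaccttGGACTatggcaaa
Bcl11b 3′ UTR, chr12:107915308-107915328, minus strand: cggtgaccGGACTggcctctg
Tbr1 coding, chr2:61812367-61812387, plus strand: gcccagcgGGACTgcgagaag
Mef2c coding, chr13:83662543-83662563, plus strand: cccccattGGACTcaccagac
Zbtb20 3′ UTR, chr16:43619332-43619352, plus strand: ggccacttGGACTtcacagta
The copies lay 191, 173, 80, 59, 76 and 596 bases from the end of the stop codon, in that order. The mRNAs differed far more in size than in motif density. The 3′ UTR of the Zbtb20 transcript is 23858 bases long and longer than those of 99.98% of coding genes, those of Prox1 (5185 bases), Bcl11b (4997 bases) and Bcl11a (3263 bases) are longer than 96.3%, 95.8% and 87.5%, and that of Neurod6 is 815 bases. Motif density ranged from 0.334 copies per kb in Bcl11a to 1.51 in Tbr1, around a median of 1.04 over coding genes.

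Total counts per library ran from 6020072 to 38909592. Levels are given as normalized CPM, counts scaled to library size (CPM) after TMM adjustment, a method that makes the bulk of genes comparable between libraries. Among the YTHDF1 RIP libraries, replicate 2 stood highest for Zbtb20, Bcl11a, Tbr1, Mef2c and Neurod6. The label of hippocampal neurons was checked against markers in Input. The summed level of 8 pan-neuronal markers was 3163 to 4460 normalized CPM and that of 6 glutamatergic markers, Tbr1 and Neurod6 among them, 898 to 1983. GABAergic neuron RNA was present too, with 8 markers summing to 389 to 1057. The cultures also held astrocyte RNA, with 9 markers summing to 1061 to 3681 normalized CPM in Input, 1374 to 3091 in the YTHDF1 RIP, 1948 to 2640 in the YTHDF2 RIP and 1249 to 2863 in the YTHDF3 RIP. Microglia markers were near 0 (8 genes, 3.12 to 9.00 normalized CPM in Input), and oligodendrocyte lineage markers (9 genes) spanned 58.8 to 422 in Input and 385 to 1473 in the YTHDF1 RIP. The part of these cells in the results below was not tested.

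In Input, levels of the 9 mRNAs were compared per length, as normalized CPM per kb of all annotated exons of a gene (mean ± SD, n = 3). Neurod6 was highest at 76.9 ± 28.8, followed by Zbtb20 at 41.3 ± 2.08. Neurod1 (26.8 ± 2.77), Neurod2 (23.3 ± 5.40) and Prox1 (22.8 ± 6.82) followed with ranges that overlapped from each to the next. Bcl11b (11.8 ± 1.51), Bcl11a (8.02 ± 1.71), Tbr1 (5.41 ± 0.320) and Mef2c (3.95 ± 1.22) were lower, each without overlap of its neighbours' ranges. For some genes all annotated exons far exceed the chosen transcript, at 15715 against 2589 bases for Mef2c and 13175 against 5989 for Bcl11a. Levels of these genes per kb of transcript would be higher, so the order depends on the length used. These are levels in a mixed culture, where fewer cells of a type and less RNA per cell cannot be told apart.

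**Figure D1:**
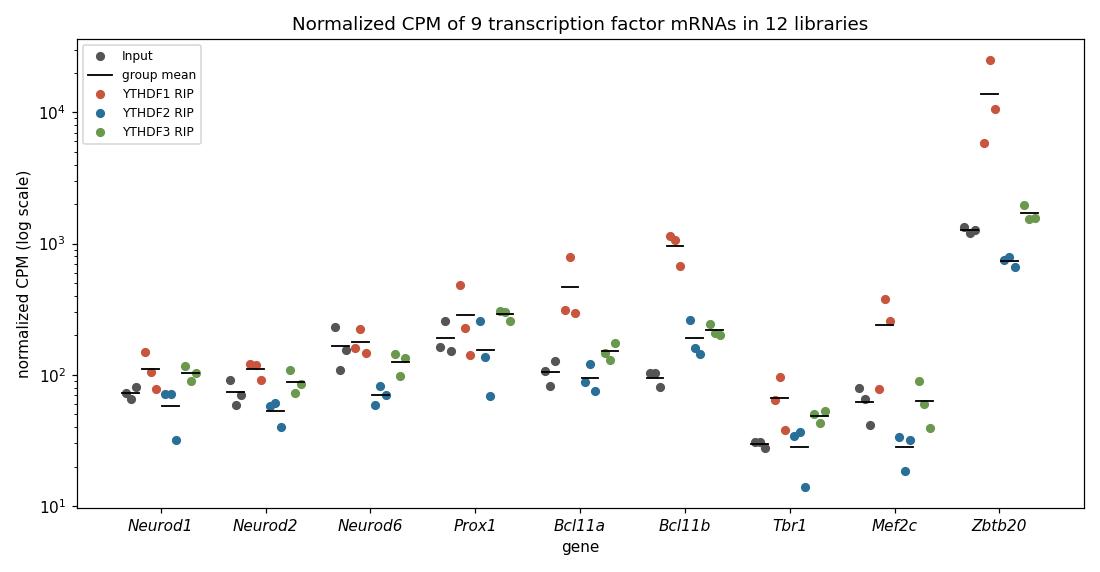
Normalized CPM on a log axis for each of the 9 mRNAs, with 1 point a library and a bar at the mean of each group of 3, Input in grey and the RIPs of YTHDF1 in red, YTHDF2 in blue and YTHDF3 in green. Zbtb20 has the highest normalized CPM of the 9, not corrected for length, in every library and spreads from 5842 to 24932 in the YTHDF1 RIP. The YTHDF2 RIP points of Neurod6, Mef2c and Zbtb20 lie below all 3 Input points, and the share of all genes tested that do so was not counted.

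In the YTHDF1 RIP, 5 of the 9 mRNAs were enriched over Input, Zbtb20, Bcl11b, Bcl11a, Mef2c and Tbr1, and the log2 fold changes of all 9 were above 0, although those of Neurod6 (down to -0.31 under scaling by library size alone) and Prox1 (down to -0.27 with the length trend removed and a replicate block) fell below 0 under some alternatives. A gene was called enriched when it was at least 1.25 times as abundant as in Input with an adjusted p of at most 0.05 by edgeR's quasi-likelihood test with Benjamini-Hochberg adjustment over all genes tested, the source of every adjusted p here. Of all genes tested, 27.2% were enriched and 25.8% depleted in this RIP. Enriched genes were 51.4% of these calls, 33.2% under scaling by library size alone and 40.0% with TMM over protein-coding genes, which moved the median of all genes by -0.40 and -0.25 on the log2 scale. None of the 9 was depleted by edgeR, by DESeq2 (0 of 9) or at an unadjusted p under 0.05 (0 of 9). The median log2 fold change of the 9 was 1.16, against 0.02 over all genes tested.

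Zbtb20 (chr16:42875881-43642602, plus strand) encodes a BTB zinc finger repressor that acts in CA1 neurons and in astrocytes. Its normalized CPM was 1333, 1205 and 1265 in Input and 5842, 24932 and 10632 in the YTHDF1 RIP. All 3 RIP libraries lay above all Input libraries, and replicate 2 alone was over 4 times replicate 1. The fold change was 10.9 (log2 3.44 ± 0.45 SE, adjusted p = 9.67e-05), and log2 values with each library left out in turn were 2.62 to 3.81. Zbtb20 took 0.119 to 0.131% of all counts in Input and 0.505, 1.75 and 0.754% in the YTHDF1 RIP.

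Bcl11b (chr12:107910403-108003602, minus strand), whose product is best known in CA1 pyramidal cells, dentate granule cells and corticospinal neurons, gave the most even enrichment. Its normalized CPM was 102, 103 and 81.2 in Input and 1136, 1072 and 675 in the YTHDF1 RIP. The fold change was 10.1 (log2 3.33 ± 0.29, adjusted p = 8.16e-06), with 3.13 to 3.53 on the log2 scale when each library was left out. Its paralog Bcl11a (chr11:24078056-24174123, plus strand) had 106, 82.7 and 128 in Input and 314, 783 and 296 in the YTHDF1 RIP. The groups did not overlap, and the fold change was 4.40 (log2 2.14 ± 0.37, adjusted p = 0.000581). The spread among the YTHDF1 RIP libraries of Bcl11a came mainly from replicate 2, without which the log2 value was 1.46.

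Mef2c (chr13:83504034-83667080, plus strand), the MADS-box gene, had 79.0, 65.8 and 41.3 normalized CPM in Input and 78.2, 378 and 259 in the YTHDF1 RIP. Replicate 1 of the RIP lay within the Input range and the other two far above it, so the groups overlapped although the test passed (log2 1.94 ± 0.51, adjusted p = 0.00739). Tbr1 (chr2:61802930-61814114, plus strand), the T-box gene, had 30.7, 30.6 and 27.6 in Input and 64.7, 96.6 and 38.1 in the YTHDF1 RIP. All 3 RIP libraries were higher than Input, with a log2 fold change of 1.16 ± 0.36 (adjusted p = 0.0181). The Tbr1 call was lost without replicate 2 of the YTHDF1 RIP (0.72, adjusted p = 0.105), without replicate 3 of Input (1.00, adjusted p = 0.0740), under scaling by library size alone (0.76, adjusted p = 0.114) and with TMM over protein-coding genes (0.92, adjusted p = 0.0517), which left 4 of the 9 enriched.

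The NeuroD mRNAs and Prox1 did not pass the test in the YTHDF1 RIP. Neurod1 (chr2:79452521-79456751, minus strand) had 72.3, 65.9 and 81.0 normalized CPM in Input and 149, 106 and 78.2 in the YTHDF1 RIP (log2 0.60 ± 0.31, adjusted p = 0.119). Neurod2 (chr11:98325415-98329648, minus strand) had 91.9, 58.5 and 69.7 in Input and 121, 119 and 90.7 in the YTHDF1 RIP (log2 0.59 ± 0.24, adjusted p = 0.0539). Each had 1 RIP library inside the Input range. Neurod6 (chr6:55677822-55681263, minus strand), the NeuroD gene of mature pyramidal cells, had 232, 109.7 and 154 in Input and 159.5, 223 and 146 in the YTHDF1 RIP, with a log2 fold change of 0.09 ± 0.28 (adjusted p = 0.799). Prox1 (chr1:190118035-190170714, minus strand) had 164, 257 and 153 in Input and 486, 228 and 142 in the YTHDF1 RIP (log2 0.58 ± 0.48, adjusted p = 0.339). Only replicate 1 of the RIP exceeded the Input range of Prox1. Neurod1 lies within the same-strand gene Cerkl, and a read in shared exons was counted for both genes, so the Neurod1 and Cerkl counts are not separate.

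**Figure D2:**
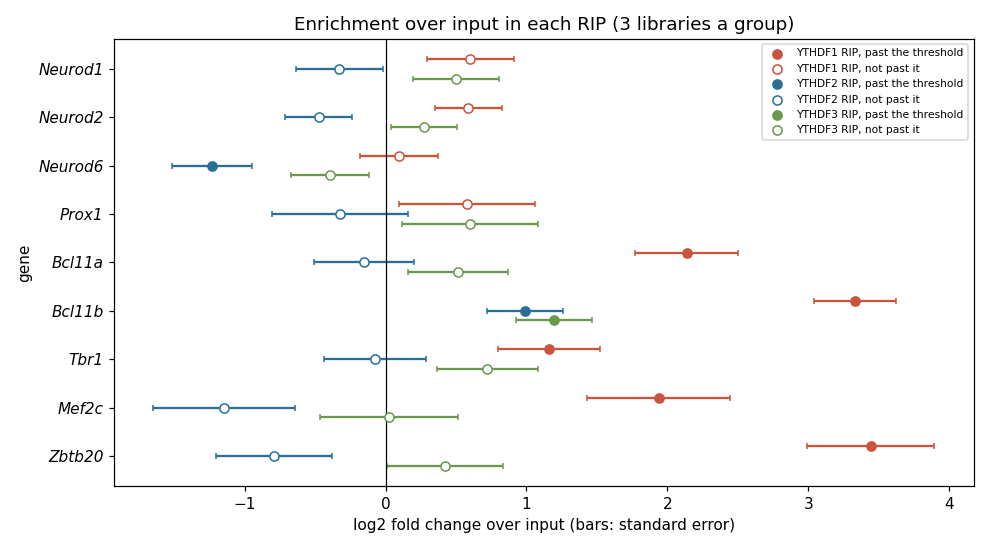
Log2 fold change over Input (x axis) of each mRNA (y axis) in the YTHDF1, YTHDF2 and YTHDF3 RIPs, with bars for the standard error from 3 libraries a group. Filled points passed the threshold: 5 for YTHDF1, with Zbtb20 at 3.44 and Bcl11b at 3.33, 2 for YTHDF2 and 1 for YTHDF3.

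In the YTHDF2 RIP, Bcl11b was enriched, Neurod6 was depleted, and the log2 fold changes of 8 of the 9 mRNAs were below 0, although those of Tbr1 (0.03 under scaling by library size alone and up to 0.25 with 1 library left out) and Prox1 (up to 0.03 with 1 library left out) were above 0 under some alternatives. Of all genes tested, 15.7% were enriched and 19.0% depleted. The median of the 9 was -0.33 on the log2 scale, against 0.02 over all genes tested. Bcl11b had 264, 160.1 and 145 normalized CPM in the YTHDF2 RIP, all above its Input libraries (log2 0.99 ± 0.27, adjusted p = 0.0143). The call was lost without replicate 1 of the YTHDF2 RIP (0.68, adjusted p = 0.0690) and without replicate 3 of Input (0.86, adjusted p = 0.0603). Neurod6 had 59.2, 81.5 and 70.4, all below its Input libraries (log2 -1.23 ± 0.28, adjusted p = 0.00646), a level 2.35 times lower.

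Zbtb20 and Mef2c were also below Input in each YTHDF2 RIP library, without passing the test. How many of all genes tested lay below Input in this way was not counted, so the separation alone does not set them apart. Zbtb20 had 748, 790.3 and 659.6 normalized CPM in the YTHDF2 RIP, where the lowest Input library had 1205 (log2 -0.79 ± 0.41, adjusted p = 0.159). Mef2c had 33.8, 18.7 and 31.6, where the lowest Input library had 41.3 (log2 -1.15 ± 0.50, adjusted p = 0.0980). In a fit to the 6 libraries of these groups alone, which does not share the spread of the YTHDF1 RIP libraries, both were called depleted (Zbtb20 -0.79, adjusted p = 0.00869, and Mef2c -1.15, adjusted p = 0.0193). The remaining mRNAs overlapped Input and did not pass. Bcl11a had 87.7, 121 and 75.8 (log2 -0.15 ± 0.36, adjusted p = 0.761), and Tbr1 had 34.2, 36.4 and 14.1 (log2 -0.08 ± 0.36, adjusted p = 0.890). Replicate 3 was the lowest YTHDF2 RIP library for Neurod1 (71.5, 71.2 and 31.8), Neurod2 (58.1, 60.5 and 39.8), Prox1 (255, 136 and 68.7) and Tbr1. Their log2 fold changes over Input were -0.33 (adjusted p = 0.432) for Neurod1, -0.48 (adjusted p = 0.140) for Neurod2 and -0.32 (adjusted p = 0.636) for Prox1.

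In the YTHDF3 RIP, Bcl11b was the 1 mRNA of the 9 to pass the test, although 6 of the 9, Neurod1, Prox1, Bcl11a, Bcl11b, Tbr1 and Zbtb20, lay above Input in every library, as did 26.6% of all genes tested. By the test, 16.4% of all genes were enriched and 23.0% depleted, and enriched genes were 41.7% of the calls, or 61.4% under scaling by library size alone. None of the 9 was depleted by edgeR, by DESeq2 (0 of 9) or at an unadjusted p under 0.05 (0 of 9), and the median log2 fold change was 0.50, against 0.05 over all genes tested. Bcl11b had 243, 209.8 and 202 normalized CPM (log2 1.19 ± 0.27, adjusted p = 0.00427). Zbtb20 had 1981, 1542 and 1568 (log2 0.42 ± 0.41, adjusted p = 0.448), and Bcl11a had 147, 129.6 and 176 (log2 0.51 ± 0.35, adjusted p = 0.278). Tbr1 had 50.4, 42.9 and 53.4 (log2 0.72 ± 0.36, adjusted p = 0.135). Each of these 3 had its lowest RIP library above its highest Input library. Neurod1 had 117, 89.5 and 104 (log2 0.50 ± 0.31, adjusted p = 0.22), Neurod2 had 108, 73.2 and 84.9 (log2 0.27 ± 0.23, adjusted p = 0.386) and Prox1 had 308, 303 and 259 (log2 0.60 ± 0.48, adjusted p = 0.354). Neurod6 had 144, 98.4 and 135 (log2 -0.39 ± 0.28, adjusted p = 0.290), and Mef2c had 89.9, 60.4 and 39.4 (log2 0.03 ± 0.49, adjusted p = 0.972), and both overlapped Input.

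The YTHDF3 RIP and Input libraries of the same replicate number deviated together across genes (Pearson's r of deviations from the group means 0.528 to 0.829), the 1 RIP whose 3 pairs with Input all exceeded 0.1. With the replicate number as a block and the 6 libraries of these groups alone, 7 of the 9 mRNAs were enriched, where 36.3% of all genes tested were enriched and 32.2% depleted. The log2 fold changes were 0.56 for Neurod1 (adjusted p = 1.02e-05), 0.34 for Neurod2 (adjusted p = 0.00334), 0.69 for Prox1 (adjusted p = 3.04e-06) and 0.58 for Bcl11a (adjusted p = 1.20e-05). They were 1.25 for Bcl11b (adjusted p = 5.59e-11), 0.77 for Tbr1 (adjusted p = 8.38e-07) and 0.47 for Zbtb20 (adjusted p = 0.000414). Neurod6 lay below its same-numbered Input in 3 of 3 pairs (log2 -0.29, adjusted p = 0.0302, a change smaller than 1.25-fold), and Mef2c did not differ by the test (log2 0.06, adjusted p = 0.596). The sizes moved little between the fits, while the standard error of Zbtb20, for example, went from 0.41 to 0.11. This fit made 2 changes at once, the block and the restriction to 2 groups. The block over all 12 libraries left 1 of the 9 enriched (2782 of all genes), and the 2 groups without a block gave 5 (3764 of all genes).

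**Figure D3:**
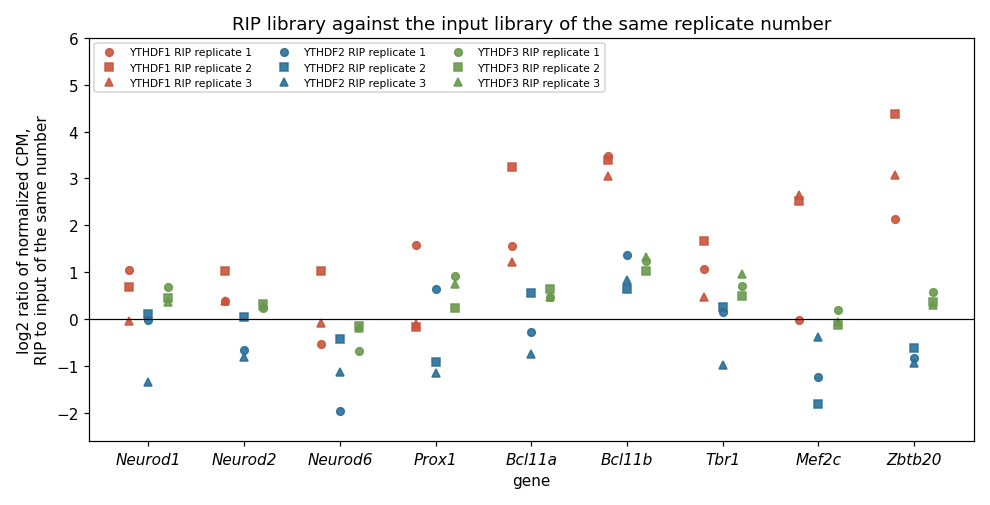
Log2 ratio of normalized CPM in each RIP library to the Input library of the same replicate number, for each mRNA, with circles, squares and triangles for replicates 1, 2 and 3. The labels do not say that equal numbers mark the same lysate, and deviations paired by number with Input in the YTHDF3 RIP only. YTHDF3 ratios of Bcl11b lie between 1.03 and 1.31 and those of Neurod2 between 0.23 and 0.32, while YTHDF1 ratios of Zbtb20 spread from 2.13 to 4.37.

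The RIPs were compared with each other with the same limit on the adjusted p and a call at 2-fold or more. The 3 comparisons with Input share its libraries, so differences between proteins rest on these direct tests. A test over the 3 RIP groups together passed for 6 of the 9, Neurod2, Neurod6, Bcl11a, Bcl11b, Mef2c and Zbtb20, and for 32.3% of all genes tested. Between the YTHDF1 and YTHDF2 RIPs, 7 of the 9 were higher with YTHDF1, where 11.4% of all genes tested were higher and 6.10% lower. Higher genes were 65.1% of these calls, 27.6% under scaling by library size alone and 53.4% with TMM over protein-coding genes. None of the 9 was lower by edgeR, by DESeq2 (0 of 9) or at an unadjusted p under 0.05 (0 of 9). Zbtb20 was 18.8 times higher (log2 4.24 ± 0.47, adjusted p = 0.000101), Mef2c 8.49 times (log2 3.09 ± 0.53, adjusted p = 0.00142), Bcl11b 5.07 times (log2 2.34 ± 0.28, adjusted p = 0.000138) and Bcl11a 4.89 times (log2 2.29 ± 0.37, adjusted p = 0.000950). The values of Neurod6 (1.33, adjusted p = 0.00511), Tbr1 (1.24, adjusted p = 0.0261) and Neurod2 (1.06, adjusted p = 0.00653) lay nearer the threshold, and all 3 calls were lost under scaling by library size alone (0.84, 0.73 and 0.59). The call of Neurod2 was also lost with TMM over protein-coding genes (0.93) and at a minimum mean of 50 counts (0.96), which left 6 of the 9. It fell under 2-fold without Input replicate 3 (0.99), YTHDF1 replicate 1 (0.99) or 2 (0.95), or YTHDF2 replicate 3 (0.89). That of Tbr1 was lost in a fit to these 2 groups alone (1.18, adjusted p = 0.103), without YTHDF1 replicate 2 (0.82) and without YTHDF2 replicate 3 (0.91). Neurod1 (0.93, adjusted p = 0.0439) was under the 2-fold limit, and Prox1 (0.90, adjusted p = 0.207) did not pass.

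Between the YTHDF1 and YTHDF3 RIPs, 4 of the 9 were higher with YTHDF1, where 10.8% of all genes tested were higher and 3.63% lower. Higher genes were 74.9% of these calls, 18.2% under scaling by library size alone and 58.4% with TMM over protein-coding genes. They were Zbtb20 (log2 3.02 ± 0.44, adjusted p = 0.000828), Bcl11b (2.14 ± 0.27, adjusted p = 0.000385), Mef2c (1.91 ± 0.51, adjusted p = 0.0195) and Bcl11a (1.62 ± 0.36, adjusted p = 0.00844). None was lower by edgeR, by DESeq2 (0 of 9) or at an unadjusted p under 0.05 (0 of 9). The calls of Mef2c (1.29, adjusted p = 0.0811) and Bcl11a (0.89, adjusted p = 0.0260, under 2-fold) were lost without replicate 2 of the YTHDF1 RIP, and that of Mef2c also without replicate 2 (adjusted p = 0.0716) or 3 (adjusted p = 0.0742) of the YTHDF3 RIP. Neurod1, Neurod2, Neurod6, Prox1 and Tbr1 differed by log2 0.10, 0.31, 0.49, -0.02 and 0.44 and did not pass.

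Between the YTHDF2 and YTHDF3 RIPs all 9 log2 differences were below 0, from -0.20 for Bcl11b to -1.21 for Zbtb20, and 0 of 9 passed by edgeR, where 3.95% of all genes tested were higher and 1.16% lower with YTHDF2. Higher genes were 77.3% of these calls, or 40.2% under scaling by library size alone. At an unadjusted p under 0.05, 6 of the 9 were lower, as were 9.53% of all genes tested, and DESeq2 called 1, Zbtb20. The median difference of the 9 was -0.83, against 0.07 over all genes tested.

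The 5 mRNAs enriched in the YTHDF1 RIP were among the 6 whose exonic length, the sum of all annotated exon bases of a gene, was above the median. Zbtb20 (30730 bases), Mef2c (15715), Bcl11a (13175), Prox1 (8390), Bcl11b (8111) and Tbr1 (5486) are longer than the median protein-coding gene tested (4637), and Neurod2 (3142), Neurod1 (2729) and Neurod6 (2150) are shorter. Mef2c is long by this sum but not by its chosen transcript, and which of its transcripts these cells hold was not examined. Its chosen transcript has 2589 bases with a 3′ UTR of 712, below the medians of 3152 and 1075 over coding genes. Over the 13508 protein-coding genes tested, the median log2 fold change in the YTHDF1 RIP was -0.76 under 3 kb, 0.06 from 3 to 6 kb, 0.62 from 6 to 12 kb and 1.38 at 12 kb or more, where 70.8% were enriched. In the YTHDF2 RIP the median at 12 kb or more was 0.54 and in the YTHDF3 RIP 0.81, so that Zbtb20 (-0.79 and 0.42) and Mef2c (-1.15 and 0.03) lay below that median in both.

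After the length trend of each library was removed, Bcl11b (log2 2.69, adjusted p = 4.30e-05), Zbtb20 (1.52, adjusted p = 0.00989) and Bcl11a (1.02, adjusted p = 0.0463) stayed enriched in the YTHDF1 RIP. Mef2c (0.62, adjusted p = 0.281) and Tbr1 (0.86, adjusted p = 0.0773) lost the call. Neurod1 (0.83, adjusted p = 0.0446) and Neurod2 (0.73, adjusted p = 0.0315) passed, and Prox1 was at -0.06 (adjusted p = 0.934). In the YTHDF2 RIP, Mef2c (-1.64, adjusted p = 0.0201) and Zbtb20 (-1.40, adjusted p = 0.0238) were then depleted with Neurod6 (-0.997, adjusted p = 0.0190), and Bcl11b lost its call (0.65, adjusted p = 0.0996). In the YTHDF3 RIP, Bcl11b missed the threshold (0.77, adjusted p = 0.0537). The trend was fitted on exonic length, which far exceeds the chosen transcript for Mef2c (15715 against 2589 bases) and Bcl11a (13175 against 5989). The values of these genes after removal therefore depend on the length used, and removal by transcript length was not tested.

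**Figure D4:**
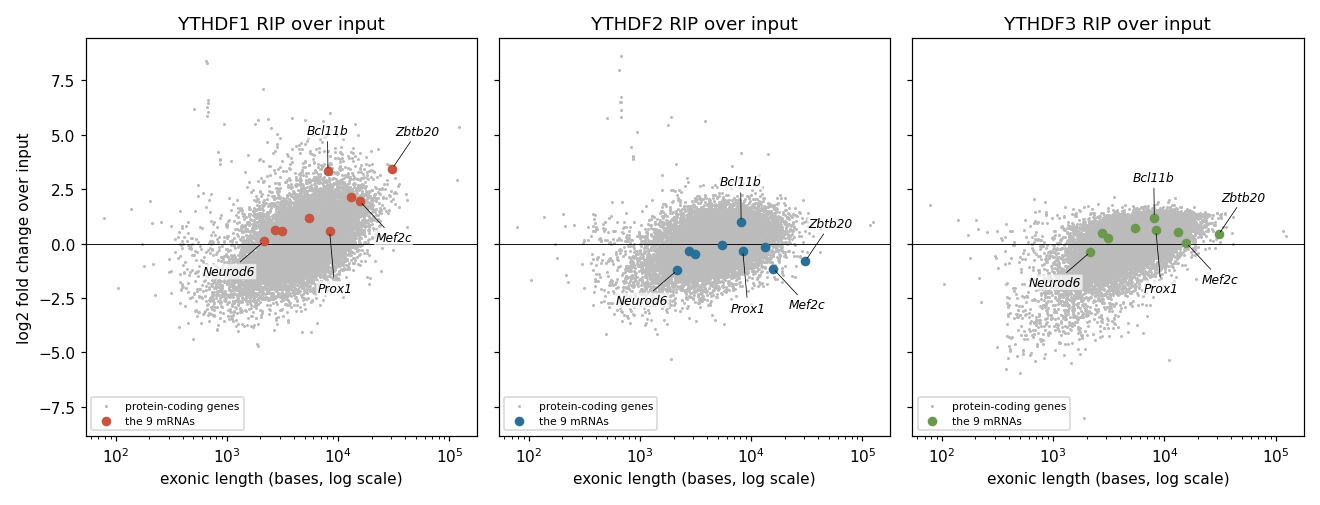
Log2 fold change over Input (y axis) against exonic length in bases (log x axis) for each RIP, with the protein-coding genes tested in grey and the 9 mRNAs in colour, 5 of them named. In the YTHDF1 panel Zbtb20 (3.44) and Bcl11b (3.33) sit in the upper part of the cloud, and in the YTHDF2 panel Mef2c (-1.15) and Zbtb20 (-0.79) sit below 0 where most genes of their length lie above it.

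Other transcription factors of forebrain neurons were read from a list of 36 genes, all tested. For scale, the shares of all genes tested that were enriched and depleted were 27.2% and 25.8% with YTHDF1, 15.7% and 19.0% with YTHDF2, and 16.4% and 23.0% with YTHDF3. In the YTHDF1 RIP 21 of the 36 were enriched and the other 15 did not pass (median log2 fold change 1.44, against 0.02 over all genes). The highest were Nfia (3.95 ± 0.67, adjusted p = 0.000533), a nuclear factor I gene, and Foxp1 (3.78 ± 0.35, adjusted p = 1.07e-05), a forkhead repressor. Normalized CPM in that RIP was 3035 ± 3336 for Nfia and 649 ± 347 for Foxp1 (mean ± SD), so the Nfia libraries differed widely. In the YTHDF2 RIP 5 were enriched and 3 depleted (median -0.09), led by the POU factor gene Pou3f3 (2.18 ± 0.40, adjusted p = 0.00179) and Npas3 (1.24 ± 0.40, adjusted p = 0.0332), with Lmo3 (-1.31, adjusted p = 0.0315) and Ldb2 (-1.31, adjusted p = 0.0213) lowest. In the YTHDF3 RIP 9 were enriched and 1, Ldb2 (-0.99, adjusted p = 0.0476), was depleted (median 0.55), again with Pou3f3 (1.49 ± 0.39, adjusted p = 0.00979) and Npas3 (1.38 ± 0.40, adjusted p = 0.0177) highest.

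Of 15 relatives of the 9 genes, 11 were tested, and Neurod4, Neurog1, Neurog3 and Tbx21 had too few counts. In the YTHDF1 RIP 7 were enriched and 1 depleted (median 0.92), where 27.2% of all genes tested were enriched and 25.8% depleted. The BTB zinc finger genes Zbtb18 (4.09 ± 0.38, adjusted p = 1.19e-05) and Zbtb38 (3.09 ± 0.22, adjusted p = 3.14e-06) were highest, and they were the enriched relatives in the YTHDF2 RIP (Zbtb18 1.11, adjusted p = 0.0253, and Zbtb38 0.93, adjusted p = 0.00570) and the YTHDF3 RIP (1.12, adjusted p = 0.0210, and 1.19, adjusted p = 0.000987). The YTHDF2 RIP depleted 2 of the 11 (median 0.36) and the YTHDF3 RIP 1 (median 0.45). Mef2b was depleted in the YTHDF1 (-2.03, adjusted p = 0.000430), YTHDF2 (-1.21, adjusted p = 0.0148) and YTHDF3 RIPs (-1.43, adjusted p = 0.00407), Mef2a was depleted in the YTHDF2 RIP (-0.85, adjusted p = 0.0304), and Mef2d did not pass in any of the 3 (-0.49 with YTHDF1 and -0.40 with YTHDF2). Among proneural relatives of the NeuroD genes, Neurog2 was enriched in the YTHDF1 RIP (0.92, adjusted p = 0.0228).

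Among partner genes, the E protein gene Tcf4, whose product pairs with NeuroD factors on DNA, was enriched in the YTHDF1 RIP (2.93 ± 0.43, adjusted p = 0.000192), while Tcf3 (-0.60) and Tcf12 (-0.28) did not pass. Id2, whose product keeps E proteins off DNA, was depleted in the YTHDF1 (-1.26, adjusted p = 0.000314), YTHDF2 (-1.09, adjusted p = 0.00181) and YTHDF3 RIPs (-0.56, adjusted p = 0.0367), and Id1, Id3 and Id4 did not pass in any of the 3.

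The profile of each mRNA over the 12 libraries was compared with those of 9940 protein-coding genes by Pearson's r of log2 CPM, as a description of libraries that differ by group and depth. Zbtb20 ran closest to Zeb2 (0.996) and Tcf4 (0.995), Mef2c to Lmbrd2 (0.991) and Braf (0.979), Bcl11b to Zbtb14 (0.987) and Sf3b2 (0.986), and Bcl11a to Zfp426 (0.983) and Runx1t1 (0.979). The other mRNAs had looser nearest profiles. Prox1 ran with Sema5a (0.945) and Cmpk2 (0.896), Tbr1 with Wfs1 (0.929) and Bhlhe22 (0.919), Neurod6 with Ina (0.917) and Gtf2b (0.916), and Neurod2 with Nyap1 (0.904) and Klf7 (0.904). Neurod1 was closest to Cerkl (0.937), with which it shares reads, and then to Arl4a (0.896). Within the set, the highest r was that of Bcl11a with Zbtb20 (0.956) and the lowest that of Prox1 with Mef2c (0.221).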

How the data were processed

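The authors extracted unique molecular identifiers with UMI-tools 1.1.1, trimmed with cutadapt 3.4, aligned to mm10 with STAR 2.7.7a, removed duplicates and counted with featureCounts 2.0.1. They deposited raw counts per gene. Per the file headers, Ensembl 97 annotation was used with strand setting 2, and a read overlapping several genes, or aligned at several places, was counted for each. Tables of the authors' own comparisons with DESeq2 gave gene symbols and biotypes only here. Their signal, log2, ratio and p-value columns were not used.

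The 17126 genes averaging 10 or more normalized counts were tested. edgeR 4.0.16 in R 4.3.3 fitted 1 quasi-likelihood model with 4 groups and TMM factors to the 12 libraries (biological coefficient of variation 0.323). Thresholds follow the study, a fold change of at least 1.25 over Input or 2 between RIPs with an adjusted p of at most 0.05. The script was tested on simulated data. The replicates are separate lysates per the study's methods, and no library copied another (chi-square per gene at least 16.6). By correlation of deviations, replicate numbers paired Input with the YTHDF3 RIP and not with the YTHDF1 or YTHDF2 RIP. Input replicate 3 ran with replicate 2 of the YTHDF1 (r = 0.467) and YTHDF2 RIPs (0.560), against -0.322 and -0.313 for the equal numbers. Which libraries of these groups share a lysate was not tested. The methods describe a shared input, but the labels do not say that equal numbers mark it.

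The 9 genes, the lists and the tests were chosen with earlier results of these data known. All 9 genes were named, with 2 closest genes each among protein-coding genes averaging 100 or more normalized counts, and for the lists the 2 highest and 2 lowest calls. Transcripts were the principal or else longest coding transcript in GENCODE M21. Alternatives were DESeq2 1.42.0, other scalings and filters, fits to the 2 groups compared, a replicate block, a length trend removed with loess of span 0.3, and leaving out each library.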

Additional observations from a re-analysis of the deposited data

Results flagged for a closer look

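In 6 mRNAs the changes over Input had opposite signs in the YTHDF1 and YTHDF2 RIPs and the direct test between these RIPs passed (edgeR's quasi-likelihood test, Benjamini-Hochberg adjustment). The log2 difference was 4.24 for Zbtb20, from 3.44 over Input with YTHDF1 and -0.79 with YTHDF2. It was 3.09 for Mef2c, from 1.94 and -1.15, with replicate 1 of the YTHDF1 RIP inside the Input range. It was 2.29 for Bcl11a, from 2.14 and -0.15. It was 1.33 for Neurod6, from 0.09 and -1.23, and the first of these values changed sign under several alternatives. It was 1.24 for Tbr1, from 1.16 and -0.08, and 1.06 for Neurod2, from 0.59 and -0.48. The YTHDF2 value of Tbr1 was above 0 under scaling by library size alone (0.025) and up to 0.25 with 1 library left out, and the calls of Tbr1, Neurod2 and Neurod6 between these RIPs were lost under scaling by library size alone. Against Input, the YTHDF2 changes did not pass for Zbtb20 (adjusted p = 0.159), Mef2c (0.0980), Bcl11a (0.761), Tbr1 (0.890) and Neurod2 (0.140). Those with YTHDF1 did not pass for Neurod6 (0.799) and Neurod2 (0.0539), so opposite signs here are not opposite calls. The share of all genes tested that meet the same rule was not counted. No test of an explanation was made. With 3 libraries a group, no search for a library far from the others within a group was made.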

How the results depend on the processing

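Across 9 mRNAs, 6 comparisons and 11 alternatives, 497 of 594 values kept their direction and side of the threshold, and with 1 library left out 609 of 648 did. No called value changed sign. The causes of the changes below were not tested. Unless stated, values are counts of the 9 mRNAs.

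With only the 2 groups compared and the replicate block, YTHDF1 enriched 3 (from 5), YTHDF2 depleted 3 (from 1), YTHDF3 enriched 7 (from 1), YTHDF1 was higher than YTHDF3 in 1 (from 4) and YTHDF2 lower than YTHDF3 in 1 (from 0). Of the 17126 genes tested, 2393, 2816, 6212, 317 and 99 had these calls, in that order. The 2-group fits without the block gave 3 depleted with YTHDF2, 5 enriched with YTHDF3, 2 higher with YTHDF1 than YTHDF3 and 2 lower with YTHDF2 than YTHDF3. The matching numbers of all genes were 3722, 3764, 893 and 430. The block over all 12 libraries left YTHDF3 at 1, with 2782 of all genes. Whether equal numbers mark 1 lysate is not given in the labels, and the deviations paired YTHDF3 with Input only. DESeq2 gave 2 depleted with YTHDF2 and 1 lower with YTHDF2 than YTHDF3, and no filter 2 and 6, with 2 enriched by YTHDF3. Over all genes DESeq2 gave 3643 and 349 of 17098, and no filter 3646, 769 and 3248 of 44478. Library size alone gave 2 enriched with YTHDF3, 4 higher with YTHDF1 than YTHDF2 (from 7), 2 higher than YTHDF3, and 2 lower with YTHDF2 than YTHDF3. The matching numbers of all genes were 4822, 1068, 767 and 718. With the length trend removed YTHDF2 enriched 0 and depleted 3, YTHDF3 enriched 0, YTHDF1 exceeded YTHDF3 in 2, and YTHDF2 was lower than YTHDF3 in 1. With the replicate block as well, YTHDF2 depleted 3, YTHDF3 enriched 2 and YTHDF1 exceeded YTHDF3 in 2. Over all genes the numbers without the block were 2213, 2818, 2564, 1228 and 302, and with it 2692, 2554 and 1122, in the same orders.

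With 1 library left out, YTHDF1 enriched 4 to 7 and depleted 0 to 0, YTHDF2 enriched 0 to 1 and depleted 1 to 2, and YTHDF3 enriched 1 to 1 and depleted 0 to 0. YTHDF1 was higher than YTHDF2 in 5 to 8 and than YTHDF3 in 2 to 4, and YTHDF2 lower than YTHDF3 in 0 to 1. Among all genes, YTHDF1 enriched 3683 to 4621, YTHDF2 enriched 1909 to 3067 and depleted 2418 to 3862, and YTHDF3 enriched 1970 to 3650. YTHDF1 was then higher than YTHDF2 in 1616 to 2097 genes and than YTHDF3 in 1188 to 2027. YTHDF2 was lower than YTHDF3 in 69 to 347. The YTHDF1 to YTHDF2 differences of both Tbr1 (0.82 and 0.91) and Neurod2 (0.95 and 0.89) lost their calls without YTHDF1 replicate 2 or YTHDF2 replicate 3.

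Uncalled log2 values changed sign as follows. Neurod6 with YTHDF1 was -0.31 (library size alone), -0.16 (TMM over protein-coding genes), -0.021 (minimum mean of 50) and -0.034 (only the 2 groups, no replicate block), and -0.19 to 0.42 with 1 library left out. Prox1 with YTHDF1 was -0.058 with the length trend removed and -0.27 with the block as well, and -0.050 to 0.90 with 1 library left out. With YTHDF2, Tbr1 was 0.025 (library size alone), and Tbr1 was -0.30 to 0.25 and Prox1 -0.90 to 0.031 with 1 library left out. With YTHDF3 and the length trend removed, without and with the block, Neurod6 was 0.089 and 0.11, Bcl11a -0.13 and -0.14, Mef2c -0.69 and -0.69, and Zbtb20 -0.37 and -0.38. Mef2c was also -0.037 (TMM over protein-coding genes) and -0.32 to 0.28 with 1 library left out. Between YTHDF1 and YTHDF3, Neurod1 was -0.59 (library size alone), -0.088 (TMM over protein-coding genes), -0.11 (no filter), -0.0037 (minimum mean of 50), -0.083 and -0.14 (only the 2 groups, without and with the block), and -0.0055 and -0.046 (length trend removed, without and with the block). With library size alone Neurod2 was -0.39, Neurod6 -0.25 and Tbr1 -0.29. With 1 library left out Neurod1 was -0.17 to 0.30, Prox1 -0.65 to 0.30 and Tbr1 -0.049 to 0.72.

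Over all genes, counts moved by over 1.5 times by other settings than leaving out a library were, for library size alone, 3087 enriched with YTHDF1 (main 4662), 4822 with YTHDF3 (2817), 1068 higher and 2796 lower between YTHDF1 and YTHDF2 (1949 and 1045), 767 and 3440 between YTHDF1 and YTHDF3 (1858 and 621), and 718 lower between YTHDF2 and YTHDF3 (198). With the 2 groups and block they were 2393 with YTHDF1, 6212 with YTHDF3, 317 and 102 between YTHDF1 and YTHDF3, and 294 and 99 between YTHDF2 and YTHDF3 (676 and 198). Without the block 893 were higher between YTHDF1 and YTHDF3, and 430 lower between YTHDF2 and YTHDF3. TMM over protein-coding genes gave 972 lower between YTHDF1 and YTHDF3. No filter gave 1174 lower there and 1043 higher and 769 lower between YTHDF2 and YTHDF3. Length removal gave 1228 and 992, and with the block 1122 and 989, between YTHDF1 and YTHDF3. Between YTHDF2 and YTHDF3 it gave 446 and 302, and 374 higher with the block. DESeq2 gave 349 lower there. With 1 library left out, 1966 were lower between YTHDF1 and YTHDF2 without YTHDF1 replicate 2. Between YTHDF1 and YTHDF3 1188 were higher without YTHDF3 replicate 2 and 1015 lower without YTHDF1 replicate 2. Between YTHDF2 and YTHDF3, leaving out any YTHDF2 or YTHDF3 library gave 110 (YTHDF3 replicate 2) to 361 higher and 69 (YTHDF3 replicate 2) to 150 lower, and 347 were lower without YTHDF1 replicate 2.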

Other observations

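Zbtb20 contains Mir568, an annotated miRNA gene of 83 bases on the same strand, and reads of the Zbtb20 transcript across it are counted for both. The Input libraries held 189, 225 and 129 counts of Mir568. Counts in the YTHDF1 RIP were 315, 1905 and 2462, those with YTHDF2 were 38, 41 and 51, and those with YTHDF3 were 559, 387 and 454. As a share of the Zbtb20 count of the same library these were 1.08 to 1.37% in Input, 0.929 to 1.10% with YTHDF3, 0.676 to 0.864% with YTHDF2 and 0.545 to 0.840% with YTHDF1, so that both the YTHDF1 and YTHDF2 shares lay below all Input shares.

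Of 30 partner genes, which encode E proteins, Id proteins, chromatin remodellers, histone deacetylases and the TBR1-binding kinase CASK, YTHDF1 enriched 12 and depleted 5, YTHDF2 enriched 6 and depleted 6, and YTHDF3 enriched 7 and depleted 6, with medians of 0.01, 0.24 and 0.08 on the log2 scale. Beside these counts and those of the interneuron list, all genes tested were 27.2% enriched and 25.8% depleted with YTHDF1, 15.7% and 19.0% with YTHDF2, and 16.4% and 23.0% with YTHDF3. The remodeller gene Arid1b (2.86 ± 0.18, adjusted p = 1.72e-06 by edgeR) was second to Tcf4 in the YTHDF1 RIP, and Smarcd3 was lowest in all 3 RIPs (-1.78, -1.36 and -1.79). The highest partner genes were Hdac7 (1.24, adjusted p = 0.0190) and Chd4 (1.02, adjusted p = 0.00271) with YTHDF2, and Arid1b (1.19, adjusted p = 0.000259) and Hdac4 (1.18, adjusted p = 0.0122) with YTHDF3, and Actl6b was second lowest in both (-1.18 and -1.25). Of 15 interneuron transcription factor genes 14 were tested, and Lhx8 had too few counts. In the YTHDF1 RIP 7 were enriched, with Maf (3.03 ± 0.29, adjusted p = 1.35e-05) and Sp8 (3.02 ± 0.21, adjusted p = 2.57e-06) highest, and Npas1 was depleted (-0.98, adjusted p = 0.0214). In the YTHDF2 RIP Lhx6 (-1.19, adjusted p = 0.0301) and Dlx2 (-0.90, adjusted p = 0.0246) were depleted. In the YTHDF3 RIP 6 were enriched, among them Nkx2-1 (1.14, adjusted p = 0.0221).

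Of the marker genes of cell types, the YTHDF1 RIP enriched 2 and depleted 1 of 8 pan-neuronal markers, 1 (Tbr1 itself) and 1 of 6 glutamatergic markers, 1 and 1 of 7 oligodendrocyte lineage markers tested, and depleted 3 of 7 GABAergic markers, 1 of 9 astrocyte markers and 1 of 5 granule cell markers tested, a list that holds Prox1. That RIP enriched 27.2% and depleted 25.8% of all genes tested. Named after their values were seen, the interneuron peptide genes Sst (-2.44, adjusted p = 0.00237), Vip (-2.75, adjusted p = 0.00524) and Npy (-2.44, adjusted p = 0.00581) were the depleted GABAergic markers, Map2 (1.49, adjusted p = 0.00146) and Elavl4 (1.34, adjusted p = 0.0153) the enriched neuronal ones, and Calb1 (-1.52, adjusted p = 0.0159) the depleted granule cell marker.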
